A study of Mus musculus with 15 samples.

Results

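The interferon regulatory factors (IRFs) measured here were Irf1, Irf2, Irf3, Irf4, Irf5, Irf7, Irf8 and Irf9. They were chosen by family name as rows of the count table, and the 8 members were found among 32543 gene entries. RNA came from 15 subcutaneous tumors of WEHI-164 cells, a mouse fibrosarcoma line, grown in wild type female BALB/c mice. Tumors taken on day 0 were untreated, and those taken on days 1, 3, 5 and 7 received poly(I:C), a synthetic double-stranded RNA, by daily intratumoral (i.t.) injection for a planned 6 doses, with 3 tumors on each day. The labels give no age, the day 7 tumors were taken after the last planned dose, and the controls were untreated day 0 tumors, so the time a tumor had grown and the treatment cannot be told apart. All tumors came from the same cell line, and each is a bulk sample of tumor cells, host leukocytes and stroma. Fewer cells of a type and less RNA per cell therefore cannot be told apart for any gene below. Total counts ranged from 23.7 to 31.9 M (mega-counts) per tumor. CPM here are counts scaled to a common library total with TMM factors, and changes are log2 fold changes with their SE from edgeR over all 15 tumors.

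IRFs are transcription factors with a shared DNA-binding domain that reads GAAA repeats in interferon-stimulated response elements (ISRE). When a cell senses double-stranded RNA, IRF3 and IRF7 are phosphorylated and switch on interferon (IFN) genes. Secreted type I IFN then acts through the ISGF3 complex, which holds STAT2 and IRF9, to switch on interferon-stimulated genes, Irf7 among them. IRF1 is itself induced by IFN gamma through gamma-activated sites (GAS), IRF2 competes with it on DNA, IRF5 acts downstream of Toll-like receptors, and IRF4 and IRF8 are mostly made by leukocytes.

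The members differ in the sequence just upstream of their transcription start. RefSeq promoter windows on GRCm38.p6, from 250 bases before the start to 50 after it, were found for all 8 members as 11 windows. They were searched on both strands for the ISRE core GAAANNGAAA and for the GAS motif TTCNNNGAA. The ISRE core was found in 3.44% of all 32851 promoter windows and in that of 1 member, Irf2. GAS was found in 8.30% of all windows and in those of 3 members, Irf1, Irf2 and Irf8. The stretches that hold them are printed on the plus strand, which is the strand of these genes, with the motif letters in capitals. They lie at chr11:53769904-53769952 for Irf1, chr8:46739495-46739549 for Irf2 and chr8:120736167-120736233 for Irf8.
Irf1: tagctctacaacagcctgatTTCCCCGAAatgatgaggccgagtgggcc
Irf2: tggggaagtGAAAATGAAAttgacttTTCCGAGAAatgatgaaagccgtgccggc
Irf8: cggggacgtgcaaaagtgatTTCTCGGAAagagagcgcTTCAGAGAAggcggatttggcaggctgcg
The GAS match of Irf1 began 90 bases upstream of the start. In Irf2 the ISRE core began 241 bases and the GAS match 224 bases upstream, and Irf8 had a pair of GAS matches 171 and 153 bases upstream. No match to either motif was in the windows of Irf3, Irf4, Irf5, Irf7 or Irf9. Irf7, the member with the largest fold changes against day 0 on days 1 and 3, is shown for comparison by the 100 bases before its start, on the minus strand of chr7:141266425-141266524, with a TATAAA sequence in capitals. That sequence began 29 bases upstream of the start, was looked for after the windows had been read, and was found on either strand in 13.6% of all windows and in those of 3 members, Irf4, Irf7 and Irf8.
Irf7: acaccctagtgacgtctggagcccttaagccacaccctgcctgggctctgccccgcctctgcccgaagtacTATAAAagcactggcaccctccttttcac
These matches describe letters in a window and are not evidence of binding in these tumors.

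All 8 members passed the filter on low counts. The comparisons with day 0 asked which members differed after poly(I:C) treatment. All 8 members had fold changes above 0 on days 3 and 5, with medians of 0.91 and 0.62 on the log2 scale against -0.03 and 0.00 over all genes tested. The 3 day 3 tumors all lay above the 3 day 0 tumors for 7 members, Irf3 being the exception. The share of all 15440 genes tested that lay higher in this way was 19.4%. On day 3, Irf7, Irf4, Irf5 and Irf8 had the larger fold changes, and Irf9, Irf2 and Irf1 smaller ones.

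No member passed the adjusted threshold of 0.05 in edgeR's quasi-likelihood test on any day or between days, and the share of all genes that passed it was 0% in each of these comparisons. At an unadjusted p under 0.05, edgeR gave 2 members for day 1 against day 0 (3.15% of all genes), 6 for day 3 (30.1%), 1 for day 5 (4.79%) and 0 for day 7 (2.07%). DESeq2 with Benjamini-Hochberg adjustment called 1 member for day 1 (0.259% of all genes), 5 for day 3 (12.7%), 0 for day 5 (0.0648%) and 0 for day 7 (0.0324%). The member DESeq2 called on day 1 was Irf7, and those on day 3 were Irf4, Irf5, Irf7, Irf8 and Irf9. Limma voom with weights for tumor quality called 0 members for day 1 (0% of all genes), 3 for day 3 (7.74%, Irf5, Irf7 and Irf9), 3 for day 5 (16.0%, Irf5, Irf7 and Irf8) and 0 for day 7 (0%). In the joint test of the treated days, 6 members had an unadjusted p under 0.05 in edgeR (16.2% of all genes), DESeq2 called 5 (7.56%) and voom 7 (25.1%), all but Irf3. The share of members called on day 3 was thus above that of all genes with DESeq2 and voom, with members that had been chosen knowing earlier results.

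**Figure D1:**
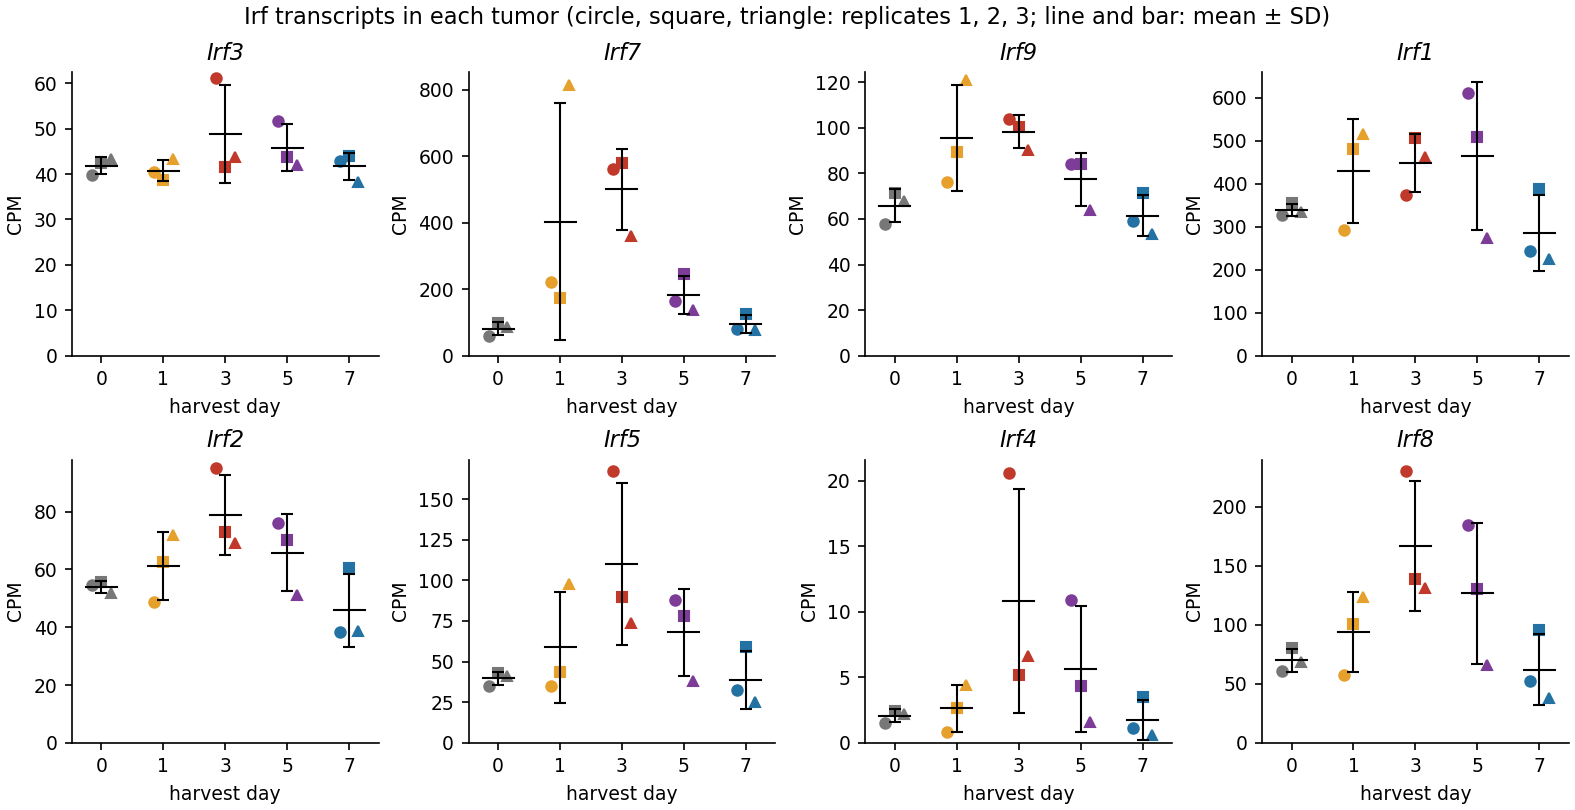
Level of each Irf transcript in CPM (vertical axes, from 0) by harvest day (horizontal axes) in 15 tumors. Points are tumors, and lines and bars are the mean and SD of 3 tumors. Irf7 stood between 173 and 814 CPM on day 1 and between 359 and 579 CPM on day 3, above its day 0 tumors at 60.4 to 97.1 CPM, while Irf3 stayed between 38.3 and 61.3 CPM in all tumors.

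A pair of tumors weighed on these counts and is named with the results that rest on it. Day 3 replicate 1 stood at 144 on the first principal component of log2 CPM against -76.9 to 45.0 for the other 14 tumors. Its summed skeletal muscle markers reached 3366 CPM against at most 185 CPM in any other tumor. Its leukocyte markers summed to 4168 CPM, where the other day 3 tumors had 1943 and 1932 CPM, and its adipocyte markers to 589.7 CPM against at most 124 CPM elsewhere. It held the highest level of Irf2, Irf3, Irf4, Irf5 and Irf8 of all 15 tumors. Without it, DESeq2 called 1 member on day 3, Irf7 (0.554% of all genes), and 1 in the joint test, again Irf7 (1.11%). Day 1 replicate 3 had the highest Irf7 and Irf9 of all tumors, and its leukocyte markers summed to 1949.6 CPM against 816 and 1044 CPM in the other day 1 tumors. Without it, DESeq2 called 0 members on day 1 (0.0325% of all genes), and edgeR called 1 on day 3, Irf7 (0.553%). The part of muscle, fat, stromal or leukocyte content in these values was not tested.

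IRF3 is the constitutive factor that responds first to double-stranded RNA, and its transcript varied the least of the family. Irf3 (chr7:44997648-45002848 on GRCm38, plus strand) was at 39.8, 42.4 and 43.4 CPM on day 0 and at 40.4, 38.6 and 43.4 CPM on day 1. On day 3 it was at 61.3, 41.6 and 43.8 CPM, on day 5 at 51.7, 43.7 and 42.0 CPM, and on day 7 at 42.8, 44.1 and 38.3 CPM. Apart from day 3 replicate 1 and day 5 replicate 1, all tumors lay within the range from 38.3 to 44.1 CPM, so the days overlapped throughout. The highest level over all tumors was 1.60 times the lowest, the smallest such ratio of the 8 members. Against day 0 the log2 change of Irf3 had 95% intervals, not adjusted over genes, from -0.33 to 0.26 on day 1, from -0.07 to 0.52 on day 3, from -0.17 to 0.43 on day 5 and from -0.30 to 0.29 on day 7. Days accounted for 31.0% of the variance of its log2 CPM, against a median of 38.2% over all genes. Without day 3 replicate 1 its day 3 change was 0.03 in place of 0.22.

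IRF7, which amplifies type I IFN production and is itself an IFN-stimulated gene, had the largest fold changes on days 1 and 3. Irf7 (chr7:141262706-141266481, minus strand) was at 60.4, 97.1 and 85.2 CPM on day 0. It stood at 221, 173 and 814 CPM on day 1 and at 561, 579 and 359 CPM on day 3. Every tumor of days 1 and 3 lay above every day 0 tumor, although day 1 replicate 3 exceeded the lowest day 1 tumor by 4.70 times. On day 5 the values were 163, 246 and 136 CPM and on day 7 they were 81.2, 125 and 75.7 CPM, so day 5 still lay above day 0 and day 7 overlapped it. The share of genes whose tumors lay wholly above day 0 was 5.75% on day 1 and 6.88% on day 5, where 2 members, Irf7 and Irf9, and 1 member, Irf7, did so.

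Against day 0, Irf7 was higher by 2.32 ± 0.51 (SE) on the log2 scale on day 1, or 4.98-fold, with an adjusted p of 0.639 in edgeR and 0.00397 in DESeq2. Without day 1 replicate 3 the day 1 change was 1.29. On day 3 it was 2.63 ± 0.51, or 6.18-fold, with an adjusted p of 0.115 in edgeR, 9.17e-05 in DESeq2 and 0.0174 in voom. This day 3 value was 2.54 without day 3 replicate 1. It was the largest of the 8 members with all tumors, but without day 3 replicate 2 Irf4 lay above it at 2.73. Its day 5 change was 1.17 (95% interval 0.11 to 2.23) with an adjusted p of 0.858 in edgeR, 0.744 in DESeq2 and 0.0137 in voom. In the day 7 tumors the change was 0.21 with an interval from -0.84 to 1.26. Days accounted for 78.7% of the variance of Irf7, at percentile 99.8 of all genes tested, and for 75.4% without day 3 replicate 1.

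**Figure D2:**
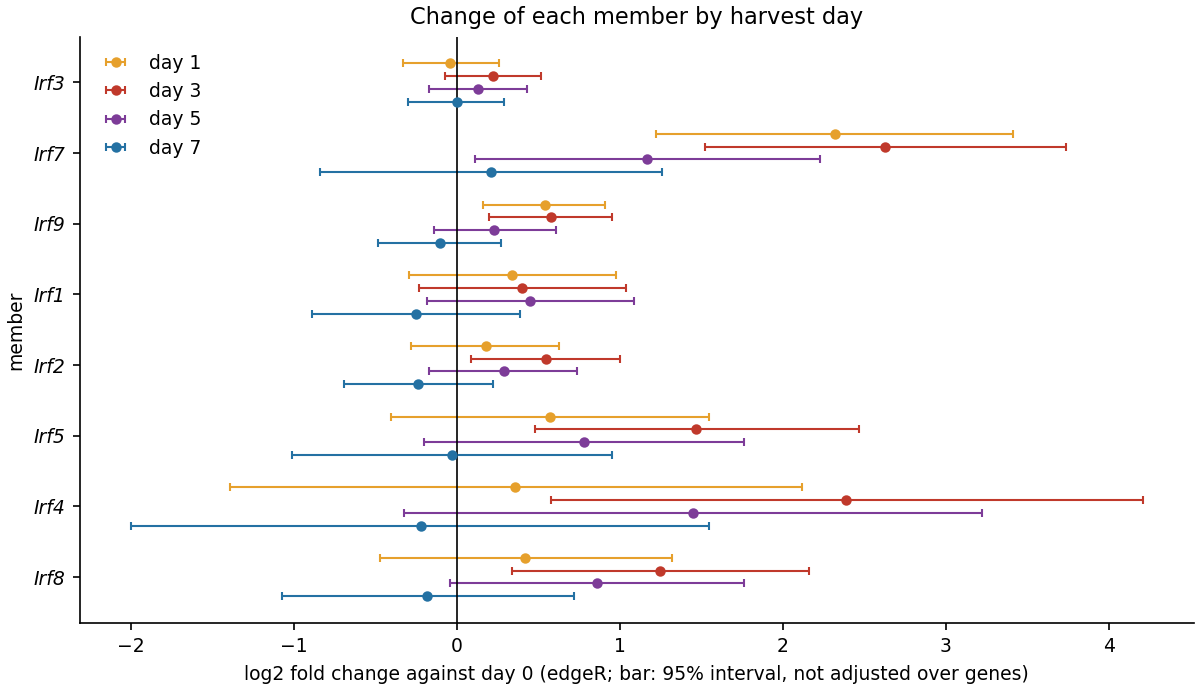
Log2 fold change of each member against day 0 (horizontal axis) with its 95% interval, from the edgeR fit of all 15 tumors, by member (vertical axis) and harvest day (color). Irf7 lay highest at 2.32 on day 1 and 2.63 on day 3, the widest intervals were those of Irf4, and the day 7 intervals all included 0.

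A ratio within each tumor sets Irf7 against Irf3 without any scaling between tumors. The ratio of counts, Irf7 to Irf3, was 1.52, 2.29 and 1.96 on day 0. It was 5.47, 4.48 and 18.8 on day 1 and 9.14, 13.9 and 8.21 on day 3. On day 5 it was 3.15, 5.63 and 3.25, still above all day 0 tumors, and on day 7 it was 1.90, 2.83 and 1.97, which overlapped day 0. The mean log2 ratio was higher than on day 0 by 2.03 on day 1, 2.42 on day 3 and 1.03 on day 5, each with an exact two-sided permutation p of 0.1, the smallest that 3 tumors against 3 allow. The day 7 difference was 0.21 (exact permutation p = 0.5). With the tests of Irf1 against Irf2 and of Irf4, Irf5 and Irf8 against leukocyte genes there were 11 such tests, and after Benjamini-Hochberg adjustment over them the smallest p was 0.275.

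**Figure D3:**
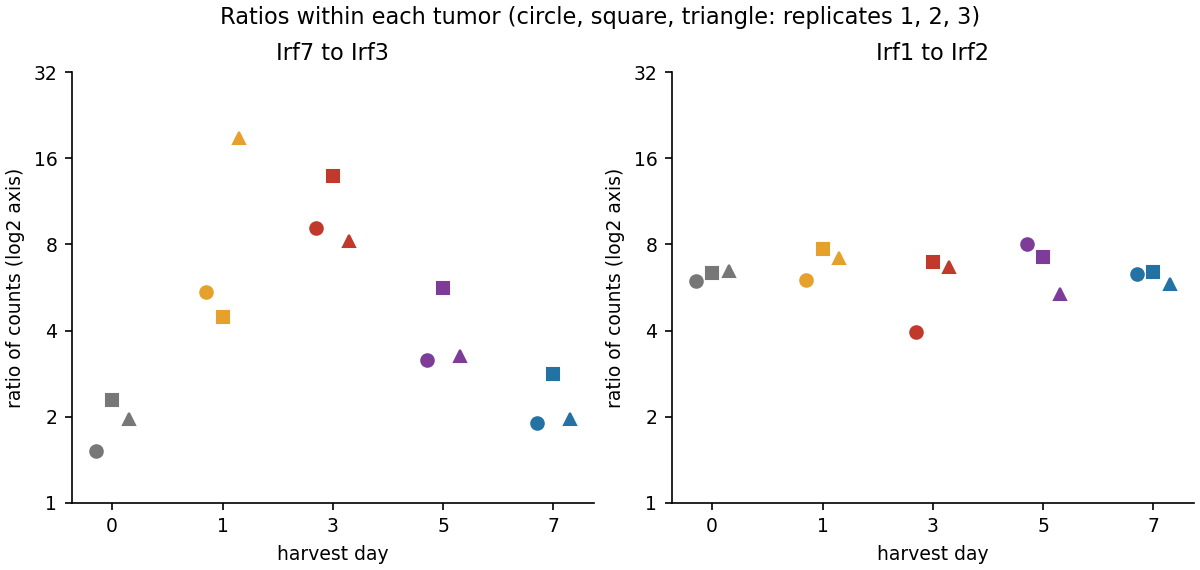
Ratio of counts within each tumor on a log2 axis (vertical) by harvest day (horizontal) for Irf7 to Irf3 (left) and Irf1 to Irf2 (right). The Irf7 to Irf3 ratio lay between 1.52 and 2.29 on day 0 and between 8.21 and 13.9 on day 3, while the Irf1 to Irf2 ratio lay between 3.94 and 8.01 in all tumors.

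IRF9 supplies the DNA-binding part of ISGF3, and its transcript followed days closely with a small amplitude. Irf9 (chr14:55603571-55610030, plus strand) was at 58.0, 71.6 and 68.0 CPM on day 0, at 76.1, 89.3 and 121 CPM on day 1 and at 104, 100.5 and 90.3 CPM on day 3. Tumors of days 1 and 3 thus lay above all day 0 tumors. Its level was 84.1, 84.0 and 64.0 CPM on day 5 and 59.3, 71.3 and 53.5 CPM on day 7, and both days overlapped day 0. The day 1 change was 0.54 ± 0.17 (adjusted p = 1.00 in edgeR, 0.453 in DESeq2), and 0.33 without day 1 replicate 3. On day 3 it was 0.58 ± 0.17 (adjusted p = 0.115 in edgeR, 0.0272 in DESeq2, 0.0407 in voom), and 0.54 without day 3 replicate 1. Days held 69.0% of the variance of Irf9, at percentile 98.3 of all genes. A small part of the Irf9 exons, 2.28%, is shared with Rnf31 on the same strand, so reads there could be split between both genes.

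IRF1, an activator of antigen presentation and IFN gamma response genes, was the most abundant member in CPM per kilobase of exon in untreated tumors. Irf1 (chr11:53770014-53778374, plus strand) was at 328, 355 and 333 CPM on day 0, a narrow range. Treated tumors spread far more, at 292, 481 and 516 CPM on day 1 and at 374, 507 and 462 CPM in the day 3 tumors. Day 5 tumors had 610, 508 and 273 CPM, and those of day 7 had 243, 387 and 224 CPM. Only on day 3 did all tumors lie above day 0. There the change of Irf1 was 0.40 ± 0.29 (adjusted p = 0.330 in edgeR, 0.297 in DESeq2), with an interval from -0.23 to 1.04. The changes for day 1 (0.34 ± 0.29), day 5 (0.45 ± 0.29) and day 7 (-0.25 ± 0.29) all had intervals that included 0. Its day 3 replicate 1 value was the lowest of that day, the opposite of Irf2, Irf3, Irf4, Irf5 and Irf8, and without that tumor the day 3 change was 0.52.

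IRF2 was first described as an antagonist of IRF1. Its gene, Irf2 (chr8:46739732-46847458, plus strand), was at 54.7, 55.6 and 51.7 CPM on day 0 and at 94.9, 72.8 and 69.1 CPM on day 3. Irf2 stood at 48.8, 62.5 and 72.0 CPM on day 1, 76.2, 70.2 and 51.0 CPM on day 5 and 38.4, 60.4 and 38.6 CPM on day 7. Only its day 3 tumors lay wholly above day 0. The day 3 change was 0.55 ± 0.21 (adjusted p = 0.129 in edgeR, 0.0722 in DESeq2, 0.0880 in voom), and 0.40 without day 3 replicate 1. The ratio of Irf1 to Irf2 counts was 5.98, 6.38 and 6.45 on day 0, and in treated tumors it ranged from 3.94 in day 3 replicate 1 to 8.01 in day 5 replicate 1. Its mean log2 value differed from day 0 by 0.14 on day 1 (exact permutation p = 0.300), -0.14 on day 3 (p = 1.00), 0.11 on day 5 (p = 0.5) and -0.02 on day 7 (p = 0.600). The day 3 difference was 0.12 without day 3 replicate 1, so its sign rested on that tumor.

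IRF5, an activator of inflammatory cytokine genes in myeloid cells, has its gene at chr6:29526625-29541871 on the plus strand. Irf5 was at 35.0, 42.9 and 40.9 CPM on day 0. It stood at 167, 89.5 and 73.6 CPM on day 3, all above day 0. On day 1 it was at 35.0, 43.8 and 97.9 CPM, on day 5 at 88.0, 78.2 and 37.9 CPM, and on day 7 at 32.5, 58.7 and 24.9 CPM, and these days overlapped day 0. The day 3 change was 1.47 ± 0.46 (adjusted p = 0.115 in edgeR, 0.0225 in DESeq2, 0.0452 in voom). It was 1.05 without day 3 replicate 1. On day 1 the change of 0.57 ± 0.45 rested on replicate 3, since without it the value was -0.01. Of the Irf5 exon bases, 14.1% overlap Tnpo3 on the opposite strand, and the strandedness of the counting was not given in the sources used here.

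IRF4 and IRF8 are factors of lymphoid and myeloid cells that bind DNA with partners such as PU.1 and BATF. Irf4 (chr13:30749226-30766976, plus strand) was the scarcest member, at 1.52, 2.46 and 2.20 CPM on day 0 and at 20.6, 5.18 and 6.61 CPM on day 3, all above day 0. It was at 0.835, 2.67 and 4.44 CPM on day 1, 10.9, 4.30 and 1.62 CPM on day 5 and 1.14, 3.50 and 0.627 CPM on day 7. These correspond to between 15 and 512 counts per tumor. The day 3 change was 2.39 ± 0.84 (adjusted p = 0.118 in edgeR, 0.0317 in DESeq2, 0.0713 in voom), and 1.52 without day 3 replicate 1, so the size of the Irf4 change depended on that tumor.

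Irf8 (chr8:120736358-120756694, plus strand), needed for monocyte and dendritic cell development, was at 61.2, 80.7 and 68.4 CPM on day 0 and at 230.3, 139 and 131 CPM on day 3. It was at 57.2, 101 and 124 CPM on day 1, 185, 130.2 and 66.0 CPM on day 5 and 52.5, 95.6 and 37.6 CPM on day 7. As for Irf5, only the day 3 tumors of Irf8 lay wholly above day 0. The change on day 3 was 1.25 ± 0.42 (adjusted p = 0.115 in edgeR, 0.0326 in DESeq2, 0.0674 in voom), and 0.95 without day 3 replicate 1. A change of 0.86 ± 0.42 on day 5 passed only in voom (adjusted p = 0.0348), with 0.858 in edgeR and 0.774 in DESeq2. An annotated gene on the same strand, Gm20388, spans the Irf8 locus without sharing exon bases with it.

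Leukocyte markers were high in the same tumors as these members. The 8 genes of the leukocyte list were Ptprc, Coro1a, Laptm5, Cd53, Cd52, Itgb2, Lcp1 and Tyrobp. They summed to between 864 and 1193 CPM on day 0 and between 1932 and 4168 CPM on day 3. On day 3 all 8 had a fold change above 0, with a median of 1.42, and 8 had an unadjusted p under 0.05 in edgeR. Macrophage markers summed to between 1629 and 1773 CPM on day 0 and between 2701 and 6813 CPM on day 3, T cell markers to between 26.5 and 37.4 CPM and between 74.3 and 289.6 CPM. Of the 6 B and plasma cell markers tested, 5 were above 0 on day 3 and 1 below, with a median of 1.38. At an unadjusted p under 0.05 in edgeR, 4 were higher and 1 was lower, and DESeq2 called 1, Cd79b. All 8 markers of the list summed to between 172 and 186 CPM on day 0 and between 147 and 175 CPM on day 3. Their sum was held mostly by Sdc1 (65.2% to 99.0% of it in each tumor), which other cell types also make. The other markers summed to between 1.89 and 3.69 CPM on day 0 and between 5.41 and 51.2 CPM on day 3. Tnfrsf17 was at 0 in 10 tumors. Without day 3 replicate 1 the day 3 medians in DESeq2 were 1.02 for the leukocyte list, 1.32 for T cells and 1.12 for B and plasma cells, and none of their genes was called. Markers of fibroblasts and fibrosarcoma such as Col1a1 and Vim, which match the labelled tumor type and which host stroma also makes, summed to 32637 CPM in day 3 replicate 1 and to between 8448 and 15182 CPM in the other tumors.

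Taken relative to the mean log2 CPM of the leukocyte list, the day 3 difference of Irf5 was 0.05 (exact permutation p = 0.5) and that of Irf8 was -0.12 (p = 0.600), and for both the days overlapped. The corresponding value of Irf4 was 0.77, with 3 of 3 day 3 tumors above day 0 (exact permutation p = 0.1, the smallest possible). Per tumor, Irf4 less the leukocyte level was -5.73, -5.63 and -5.68 on day 0 and -4.47, -5.34 and -4.92 on day 3. It lay between -6.54 and -5.31 on day 1 and between -6.55 and -5.42 on day 7, both of which overlapped day 0. Day 5 tumors had -4.48, -5.54 and -6.05 and overlapped it too. T cell genes had a median change of 2.25 on day 3, next to 2.39 for Irf4, and the difference of Irf4 from the T cell level was not tested. Set against the macrophage list in its place, the day 3 difference was 0.24 for Irf5, 0.06 for Irf8 and 0.95 for Irf4.

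**Figure D4:**
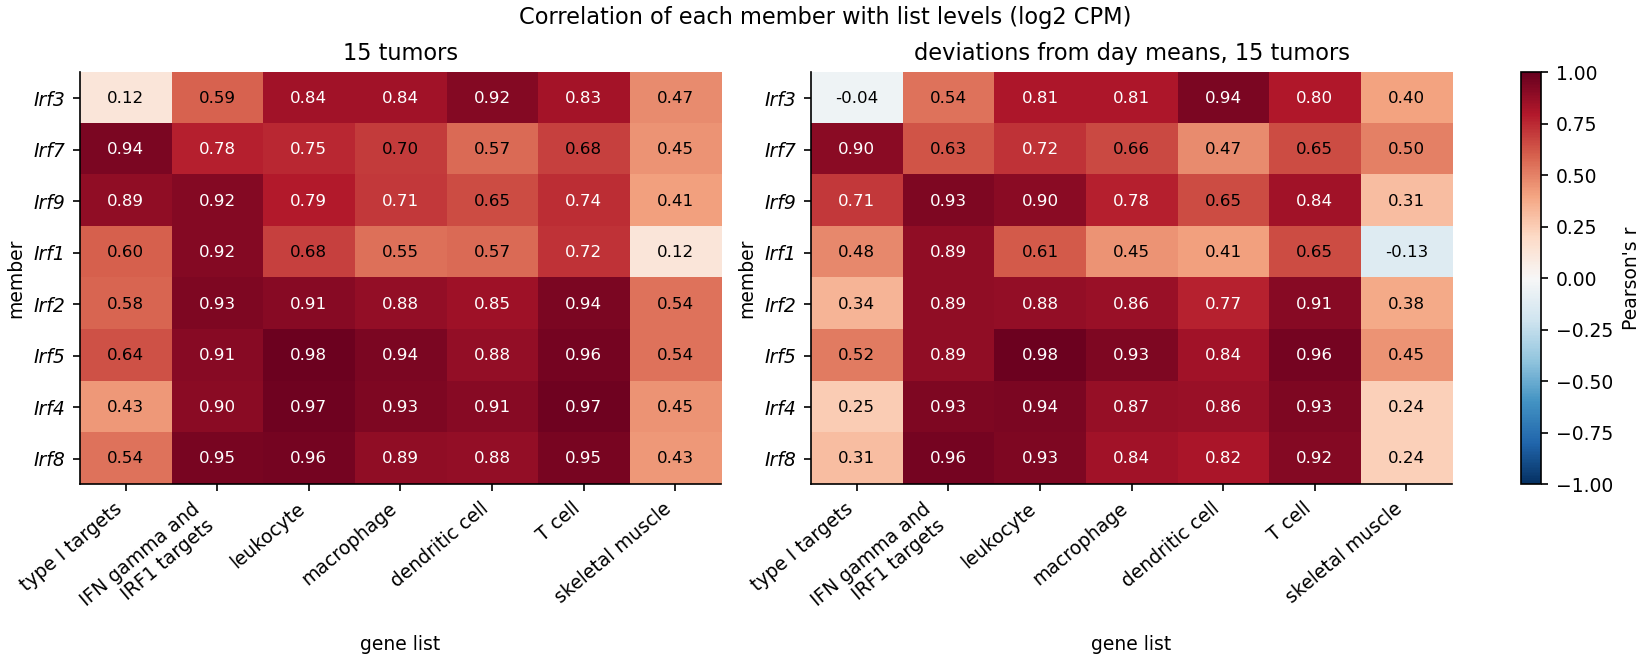
Pearson's r between the log2 CPM of each member (vertical) and the mean log2 CPM of each gene list (horizontal), over 15 tumors (left) and over deviations from the day means (right). Irf7 had r of 0.94 with the type I IFN targets, and Irf9 had 0.89 with these and 0.92 with the IFN gamma and IRF1 targets. Irf5, Irf4 and Irf8 had r of 0.96 or more with the leukocyte list. With the IFN gamma and IRF1 targets they had 0.91, 0.90 and 0.95. Irf3 had r of 0.12 with the type I IFN targets and 0.84 with the leukocyte list.

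The members fell along a gradient in how they tracked these lists over the 15 tumors, given here as a description. Irf7 had a Pearson's r of 0.94 (Spearman's rho 0.97) with the level of 18 type I IFN target genes and 0.75 with the leukocyte list. Irf9 had 0.89 with the type I targets and 0.92 with the list of IFN gamma and IRF1 targets, and over deviations from day means these were 0.71 and 0.93. Irf5 had the reverse order of Irf7, 0.64 with the type I targets and 0.98 with the leukocyte list. With the leukocyte list Irf2 had 0.91 and Irf3 0.84, and these were 0.88 and 0.74 without day 3 replicate 1. Irf1 was nearest to the list of IFN gamma and IRF1 targets, with 0.92, and to the leukocyte list had 0.68. Other members were as close to the IFN gamma and IRF1 list, with 0.95 for Irf8, 0.93 for Irf2, 0.91 for Irf5 and 0.90 for Irf4. Irf7 had 0.78 and Irf3 0.59 with it. Over deviations from day means, Irf8 had 0.96 with that list and 0.93 with the leukocyte list. Taking deviations from day means left 0.90 for Irf7 with the type I targets, 0.98 for Irf5 with leukocytes and 0.89 for Irf1 with the IFN gamma list. Within each tumor, the member and list values come from the same library and share its depth. Without day 3 replicate 1 the r was 0.97 for Irf7 with the type I targets and 0.97 for Irf5 with leukocytes. For Irf1 with leukocytes it was 0.87 in place of 0.68. Among pairs of members, Irf4 with Irf8 (0.98) and Irf2 with Irf8 (0.97) were closest, Irf7 with Irf9 had 0.94, and Irf1 with Irf3 had 0.32. Without day 3 replicate 1, Irf1 with Irf3 had 0.54, Irf1 with Irf2 and with Irf8 had 0.97 in place of 0.83 and 0.84, and the lowest pair was Irf3 with Irf7 at 0.19.

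The genes most like each member were found by Pearson's r of log2 CPM over the 15 tumors among all genes tested. For Irf7 they were the gene named GM4955 in the table (0.984), Ly6e (0.983) and Trim30a (0.981), and for Irf9 they were Ly6c1 (0.983), Ly6a (0.980) and Parp9 (0.980). Irf1 was closest to Batf2 (0.979), Iigp1 (0.978) and Gbp2 (0.973). Irf5 was closest to Acvrl1 (0.994), Themis2 (0.992) and Ptafr (0.991), Irf8 to Gbp8 (0.992), Itgal (0.982) and Tnfrsf14 (0.982), and Irf4 to Itgal (0.985), Entpd1 (0.982) and Gbp8 (0.981). Irf2 had Degs2 (0.981), Rbm47 (0.981) and C3 (0.976), and Irf3 had Pros1 (0.973), Calcrl (0.970) and Ecm2 (0.969). Without day 3 replicate 1 the values of the Irf3 neighbours were 0.927, 0.914 and 0.925, the largest fall of the 8 sets.

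The day 7 tumors, taken after the last planned dose, were next compared with those of day 3. From day 3 to day 7 all 8 members had fold changes below 0, with a median of -1.11 against 0.02 over all genes. The day 7 tumors lay wholly below the day 3 tumors for 6 members (18.4% of all genes lay lower in this way), Irf1 and Irf3 being the others. In this comparison 7 members had an unadjusted p under 0.05 in edgeR (35.5% of all genes), 6 were called by DESeq2 (20.9%, Irf2, Irf4, Irf5, Irf7, Irf8 and Irf9) and 4 by voom (3.51%, Irf2, Irf5, Irf7 and Irf9). The change of Irf7 was -2.41 ± 0.51 (adjusted p = 0.0831 in edgeR, 0.00153 in DESeq2), that of Irf8 -1.43 ± 0.42 (adjusted p = 0.0831, 0.0133) and that of Irf9 -0.68 ± 0.17 (adjusted p = 0.0831, 0.0115). Leukocyte genes had changes below 0 over this step in 8 of 8 (median -1.54, 7 called by DESeq2), macrophage genes in 10 of 10 (-1.44, 9 called) and T cell genes in 8 of 8 (-2.75, 8 called). Muscle and adipocyte markers had medians of -4.42 and -3.83. Without day 3 replicate 1 the medians in DESeq2 were -1.04 for leukocyte, -0.87 for macrophage and -1.81 for T cell genes. They were then -1.18 for muscle and -2.09 for adipocyte markers, and no gene of these lists was called. Erythroid markers summed to between 29.0 and 221 CPM on day 7 against 10.2 to 28.7 CPM on day 3. The part of these cell types in the members' values was not tested. Without day 3 replicate 1, and so with 1 tumor fewer, DESeq2 called 0 members (0.306% of all genes). The edgeR changes without that tumor were -2.32 for Irf7, -1.11 for Irf8 and -0.63 for Irf9. EdgeR without day 3 replicate 3 called 5 members (13.1%), and without day 1 replicate 3 it called 1, Irf7 (0.390%).

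The median change of the members was smaller in size between neighbouring days than from day 3 to day 7. This did not hold for each member, since Irf1 had -0.71 ± 0.29 from day 5 to day 7 and -0.65 ± 0.29 from day 3 to day 7. From day 1 to day 3 all 8 members had fold changes above 0 with a median of 0.34, and 1 member, Irf4, had an unadjusted p under 0.05 in edgeR (18.3% of all genes). DESeq2 called 0 members (0.181%) and voom 0 (0%). The changes of Irf7 and Irf9 over this step were 0.31 ± 0.48 and 0.04 ± 0.17, while Irf4 had 2.03 ± 0.82, Irf5 0.90 ± 0.45 and Irf8 0.83 ± 0.41. Without day 1 replicate 3, DESeq2 called 3 members here, Irf4, Irf5 and Irf7 (12.8%), and the change of Irf7 in edgeR was 1.34. From day 3 to day 5 the median was -0.37, with 1 member, Irf7 at -1.46 ± 0.49, past an unadjusted p of 0.05 in edgeR (7.91% of all genes), and 0 members called by DESeq2 (0%) or voom (0%). From day 5 to day 7 the median was -0.76, with 3 members, Irf1, Irf2 and Irf8, past that level (3.02% of all genes), and 0 called by DESeq2 (0.0130%) or voom (0%).

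When days were ordered by each member's mean, neighbouring days mostly overlapped. The mean of Irf7 was highest on day 3 at 499.7 CPM, followed by day 1 at 403, day 5 at 182, day 7 at 93.9 and day 0 at 80.9 CPM, and days 5 and 7 did not overlap while the other neighbours did. For Irf2, Irf4, Irf5 and Irf8 the order was day 3, day 5, day 1, day 0 and day 7, with overlap between each pair of neighbours. The order of Irf9 placed day 1, at 95.6 ± 23.3 CPM (SD, n = 3), next to day 3, at 98.3 ± 7.24 CPM, ahead of day 5. Irf1 was the member with its highest mean on day 5, at 464 ± 173 CPM.

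**Figure D5:**
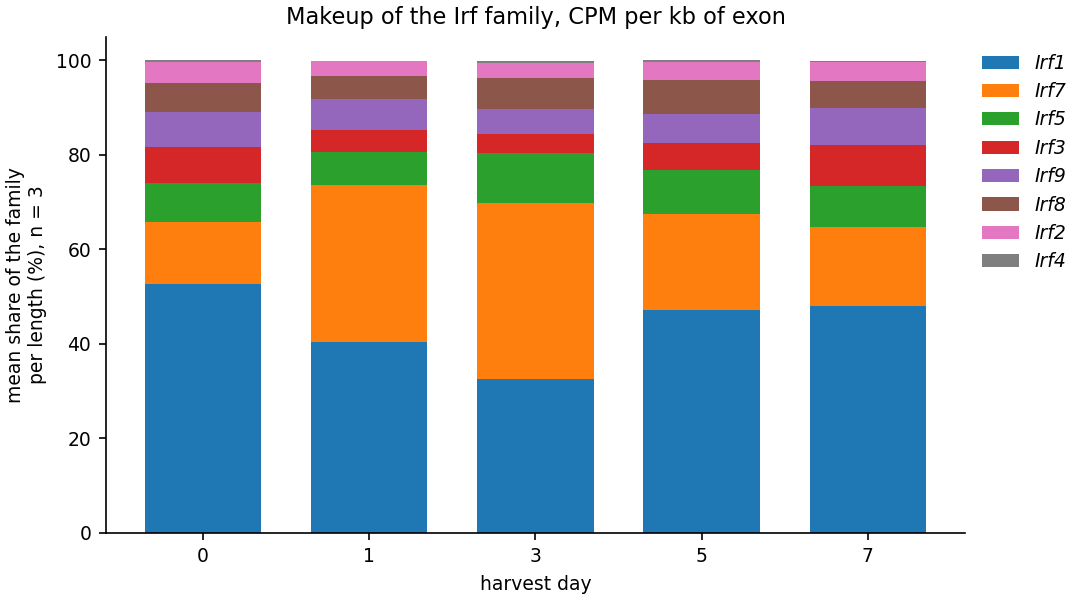
Mean share of each member in the summed CPM per kilobase of exon of the 8 members (vertical axis, percent, n = 3) by harvest day (horizontal axis). From day 0 to day 3 the share of Irf7 went from 13.1% to 37.2% and that of Irf1 from 52.6% to 32.6%, and by day 7 they stood at 16.8% and 48.0%.

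Per length of exon, the makeup of the family changed along with its total. The 8 members summed to 162 ± 12.9 CPM per kilobase (SD, n = 3) on day 0. The sum was 287 ± 137 for day 1, 352 ± 49.3 for day 3, 244 ± 74.7 for day 5 and 149 ± 44.1 for day 7. Irf1 made up 52.6% ± 2.29 of this sum on day 0 and 32.6% ± 7.62 on day 3. Irf7 made up 13.1% ± 2.10 on day 0 and 37.2% ± 4.56 on day 3, with all day 3 tumors above the day 0 range of 10.7% to 14.7%. On day 3 the level of Irf7 per kilobase of exon was 132 ± 32.3 CPM and that of Irf1 113 ± 16.9 CPM, while by the length of the longest transcript they were 154 and 209 CPM, so the order of these members on day 3 depended on the length used. Irf4 was the lowest at 0.420 ± 0.0992 CPM per kilobase on day 0. Irf3, Irf9, Irf5 and Irf8 lay close together on day 0, at 12.2, 12.2, 13.6 and 9.93 CPM per kilobase.

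The genes around the family in the pathway were counted by their roles, from lists chosen by function. Among sensors and adaptors, 12 of 13 genes were tested, and on day 3 against day 0 9 were above 0 with a median of 0.61, 7 of them with an unadjusted p under 0.05 in edgeR and 7 called by DESeq2. Over all genes these shares were 30.1% and 12.7% on day 3, and 3.15% and 0.259% on day 1. The counts of the lists below are to be read against the shares of the same day. The genes named are those with the smallest joint p in their list. Ifih1, the sensor MDA5 that binds long double-stranded RNA, was higher by 0.90 ± 0.21 on day 1 and 0.84 ± 0.21 on day 3. Dhx58, a regulator of these sensors, was higher by 1.47 ± 0.34 and 1.43 ± 0.34. Ddx58, the sensor RIG-I, was higher by 0.81 ± 0.17 and 0.50 ± 0.17. DESeq2 called all 3 sensors on both days and edgeR none, with an adjusted p of 0.639 in edgeR on day 1 and at most 0.116 on day 3. DESeq2 called 0 of them on day 1 without day 1 replicate 3, and on day 3 without day 3 replicate 1 it called Ifih1 and Dhx58.

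Of the 8 kinases and their adaptors that act on IRF proteins, 5 were above 0 on day 1 and 6 on day 3, with 2 called by DESeq2 on day 3, Ikbke (1.54 ± 0.40) and Tbk1 (0.41 ± 0.12). Partners in DNA binding had a median of 1.22 on day 3, when 9 of 10 were above 0, 6 had an unadjusted p under 0.05 and 5 were called by DESeq2. Stat2, the partner of IRF9, was higher by 1.10 ± 0.30 on day 1 (adjusted p = 0.924 in edgeR, 0.120 in DESeq2). On day 3 Stat2 was higher by 0.96 ± 0.30 (adjusted p = 0.115 in edgeR, 0.0276 in DESeq2). Ikzf1, a lymphoid factor, had 0.13 ± 0.49 on day 1 and 1.61 ± 0.50 on day 3. Inhibitors and corepressors were mixed, with 6 of 10 above 0 on day 3 and 3 called by DESeq2. Usp18, which damps type I IFN receptor signalling, was higher by 1.71 ± 0.40 on day 1 (adjusted p = 0.639 in edgeR, 0.0136 in DESeq2). On day 3 Usp18 was higher by 1.31 ± 0.40 (adjusted p = 0.115 in edgeR, 0.0208 in DESeq2). Without day 1 replicate 3, DESeq2 called 0 of the kinases, partners and inhibitors on day 1. Without day 3 replicate 1, DESeq2 called 0 of the kinases and partners on day 3 and 1 of the inhibitors, Usp18.

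With all tumors, the 18 type I IFN target genes had their larger median on day 1 and the leukocyte genes on day 3. All 18 targets were above 0 on day 1, with a median of 1.53. Of these, 18 had an unadjusted p under 0.05 in edgeR (3.15% of all genes) and 12 were called by DESeq2 (0.259%). On day 3 the median was 1.28, with 16 (30.1%) and 13 genes (12.7%), and on day 7 it was 0.05, with 0 (2.07%) and 0 (0.0324%). Without day 1 replicate 3 the day 1 median in DESeq2 was 0.85 and 2 targets were called, Oas2 and Ifi44, and leaving out day 3 replicate 1 gave 1.44 and 8 targets for day 3. Oas3, which makes the activator of RNase L, was higher by 1.95 ± 0.39 on day 1 and 1.81 ± 0.39 on day 3. The leukocyte list had medians of 0.30 on day 1 and 1.42 on day 3, and the difference in timing was not tested. The 18 IFN gamma and IRF1 targets had medians of 0.58 for day 1, 0.77 for day 3, 0.53 for day 5 and -0.28 for day 7, with 1 gene called by DESeq2 on day 3, Gbp3 at 0.92 ± 0.31, and 0 without day 3 replicate 1. Most interferon genes themselves were near the limit of detection, since 17 of 19 never exceeded 3 counts in a tumor. Ifnb1 ranged from 1 to 21 counts. Ifng, the 1 interferon gene that passed the filter, ranged from 17 to 226 counts. Its change was 1.58 ± 0.72 on day 3 against day 0 (adjusted p = 0.162 in edgeR, 0.0984 in DESeq2). From day 3 to day 7 it was -2.06 ± 0.73 (adjusted p = 0.0910 in edgeR, 0.0274 in DESeq2). Without day 3 replicate 1, DESeq2 did not call Ifng in either comparison.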

How the data were processed

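RNA from 15 tumors, 3 on each of 5 harvest days, was sequenced by the authors as 100 base single-end reads of poly(A) RNA. The authors quantified transcripts of GRCm38 (mm10) with kallisto, and tximport gave totals per gene. The deposited values are estimated counts given as whole numbers, treated here as counts, and kallisto splits reads shared by similar transcripts. Strandedness and the transcript set were not given in the sources used here. The labels and a supplementary legend of the study differ in dose, so no dose is given.

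An entry named as a date (at most 0.0268% of a total) was left out, and 31401 of 32544 entries matched a GENCODE M21 symbol. A count of 3, which a count of 0 allows, is 0.094 to 0.127 CPM, for counting error only. Genes above 0.375 CPM (10 counts in the median library) in at least 3 tumors were kept, 15440 in all. Day was fitted over all tumors by quasi-likelihood in edgeR 4.0.16 (R 4.3.3) after TMM scaling, and p-values were adjusted by Benjamini-Hochberg over all genes. DESeq2 1.42.0, limma 3.58.1 voom with quality weights, RLE factors, no filter, a replicate block and leaving out each tumor were alternatives. DESeq2 without day 3 replicate 1 and without day 1 replicate 3 was added, for members and lists, after the data were seen. Ratios within tumors used counts plus 0.5 and two-sided exact permutation tests. List levels are means of log2 CPM (prior count 2). Levels per length used the union of exons in GENCODE M21. Fits were tested on simulated data with the same spread for every gene and no outlying tumor, so this cannot decide between fits that differ here.

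Members and lists were chosen with earlier results of these data known. Named genes were all members, at most 3 of each pathway list by the smallest joint p, and the 3 genes closest to each member. Replicate pairs within a day differed beyond counting noise (chi-square over degrees of freedom 9.32 to 269), so none was a repeated sequencing of the same library. Counting noise cannot tell separate libraries of the same tumor from those of different tumors. P-values judge differences between days against the spread between these tumors. Replicate numbers were not taken to pair the tumors. Of 30 same-number correlations of deviations, 9 exceeded 0.1 (range -0.620 to 0.510). Tumors of different numbers were not compared in this way, so these values cannot decide whether the numbers pair tumors.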

Additional observations from a re-analysis of the deposited data

How the results depend on the processing

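The count of members past an adjusted p of 0.05 was 0 in all 9 comparisons with edgeR as reported. It stayed at 0 with DESeq2 size factors in edgeR and without the filter on low counts. With the replicate number as a block (replicate block) it was also 0 members, and whether the numbers pair the tumors is not known. With DESeq2 it was 1 for day 1, 5 for day 3, 6 for day 7 against day 3 and 5 in the joint test, and with limma voom it was 3 for day 3, 3 for day 5, 4 for day 7 against day 3 and 7 in the joint test. DESeq2 without day 3 replicate 1 called 1 for day 1 (0.437% of all genes) and 1 for day 3 (0.554%). It called 1 in the joint test (1.11%) and 0 for day 7 against day 3 (0.306%). DESeq2 without day 1 replicate 3 called 5 for day 3 (17.3% of all genes) and 1 for day 5 (0.202%). It called 3 for day 3 against day 1 (12.8%) and 1 for day 5 against day 3 (0.228%). For day 7 against day 3 it called 6 (24.3%), and in the joint test 6 (15.3%). Both of these fits were chosen after seeing the data. Leaving out each tumor in edgeR gave 0 to 1 members for day 3, the 1 being Irf7 without day 1 replicate 3, and 0 to 5 for day 7 against day 3, the 5 without day 3 replicate 3. The cause was not tested.

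Against day 0, the log2 changes of all 8 members kept their sign on days 3 and 5 under every alternative, and on day 1 those of all but Irf3, Irf4 and Irf5. Signs turned for values near 0 or resting on 1 tumor. Against day 0, leaving out each tumor gave for day 1 -0.08 to 0.00 for Irf3, -0.24 to 0.79 for Irf4 and -0.01 to 0.84 for Irf5, and for day 7 -0.04 to 0.05 for Irf3, -1.21 to 0.17 for Irf4, -0.46 to 0.20 for Irf5, -0.04 to 0.37 for Irf7 and -0.64 to 0.08 for Irf8. For day 3 against day 1 it gave -0.15 to 0.21 for Irf1, -0.05 to 1.34 for Irf7 and -0.10 to 0.25 for Irf9, and for day 5 against day 3 -0.20 to 0.32 for Irf1 and -0.19 to 0.11 for Irf3. On day 1, Irf4 was at -0.15 in voom and -0.24 in DESeq2 without day 1 replicate 3, where Irf5 was at -0.01. The Irf3 change of day 7 was 0.01 with DESeq2 size factors, in DESeq2 and in both added fits. In DESeq2 without day 3 replicate 1, Irf9 was at 0.00 for day 3 against day 1, and for day 5 against day 3 Irf1 was at -0.05 and Irf3 at 0.12, while Irf3 was at 0.04 in voom.

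Leaving out each tumor, the mean log2 ratio of Irf1 to Irf2 differed from day 0 by -0.29 to 0.12 for day 3, -0.01 to 0.28 for day 5 and -0.06 to 0.02 for day 7, and Irf5 less the leukocyte level by -0.02 to 0.14 for day 3. With macrophage in place of leukocyte genes Irf8 was at 0.06. The Irf7 to Irf3 ratio kept its sign under every alternative, at 1.38 to 2.42 for day 1 and 2.19 to 2.57 for day 3 when each tumor was left out. Paired by replicate number as a block, its differences were 2.03 and 2.42, with an exact sign-flip p of 0.25, the smallest that 3 pairs allow. Length per gene moved the day 0 level of 6 members by more than 1 SD, Irf4 and Irf7 not among them. With 3 tumors a day, single tumors set many of these values, and Irf4 had as few as 15 counts in a tumor.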
